A study of Homo sapiens with 6 samples.

Results

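The core splicing and hnRNP genes are described here in EJ, an established line of human bladder cancer cells, with and without knockdown of STIL, a centriole duplication protein. The members are all genes of the deposited expression tables whose symbol begins with SRSF, HNRNP, SNRP, SF3A or SF3B, together with U2AF1, U2AF2, PRPF8, TRA2A and TRA2B, which gave 59 of the 15953 measured genes. This rule uses symbols and no measured value, but it was chosen with earlier results of these data known. They comprise 21 hnRNP genes, 14 SR and SR-like genes, 12 Sm and U snRNP genes, 9 SF3A and SF3B genes, and 3 further factors (U2AF1, U2AF2 and PRPF8).

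RNA-seq was performed on 6 libraries. The control group held 3 libraries of EJ cells with a control hairpin (shNC), and the STIL-knockdown group held 3 libraries of EJ cells with a hairpin against STIL (shSTIL). The methods describe stable lines made with lentivirus, and whether a line was a clone or a pool is not given in the sources used here. The sample labels do not say that libraries came from separate cultures, so P-values measure only the spread between these libraries.

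Introns are removed from pre-mRNA by the spliceosome, which assembles on each intron from small nuclear ribonucleoproteins (snRNPs), particles of a small nuclear RNA and a ring of Sm proteins. U2AF binds the 3′ end of the intron, the SF3A and SF3B complexes anchor the U2 snRNP at the branch point, and PRPF8 forms the core around the catalytic centre. SR proteins mostly bind exons and favour their inclusion, while hnRNPs coat nascent transcripts and often act in the opposite direction, and many members of both families limit their own mRNA through exons that lead to its decay.

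STIL log2 CPM (reads scaled to a common library size, on the log2 scale) was 5.98, 6.10 and 6.01 in controls and 4.05, 4.06 and 4.01 after STIL knockdown. Totals of the recovered reads ranged from 16214800 to 16431200 per control library and from 16734500 to 16901600 per STIL-knockdown library. Of the epithelial markers, KRT7, KRT8 and KRT18 were each above 100 CPM on average, whereas 7 of the 10 epithelial and urothelial markers measured were under 3 CPM. The 2 measured fibroblast markers summed to at most 4.04 CPM and the 4 endothelial markers to at most 0.974 CPM in any library. The 2 measured immune markers, of which CD68 was above 10 CPM, summed to 10.8 to 11.9 CPM in control and 13.1 to 15.0 CPM in STIL-knockdown libraries, and the part of this in the results was not tested. Of 41 S phase genes, 40 were called lower in STIL-knockdown cells (median log2 fold change -0.97), and their summed level was 47.4% of control. The part of this in the results on the splicing genes was not tested, and in bulk RNA fewer cells in a phase and less RNA per cell cannot be told apart.

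Most core splicing and hnRNP genes had lower mRNA levels in STIL-knockdown cells, by a modest amount. With a limma adjusted p under 0.01, 42 of the 59 members (71.2%) were lower and 4 were higher (SF3B6, SRSF3, SRSF1 and U2AF1), and 13 were not called. The call on U2AF1 rests on a split of reads with a copy, described further below. Over all measured genes 23.6% were called lower and 23.5% higher. The members are strongly expressed, and 55 of them had a mean log2 CPM of at least 5. Of these 55, 42 were lower and 3 higher, whereas among all 6496 genes at that level 34.5% were lower and 36% higher. The median log2 fold change of the members was -0.26, against 0.0052 over all genes. The groups were free of overlap for 53 of the 59 members and for 60.3% of all genes. Among strongly expressed genes (mean log2 CPM 5 or more) this held for 50 of 55 members and for 80.6% of all 6496. For each of these 53 genes the exact permutation test, two-sided over 20 labellings, gave p = 0.1, the smallest it can give.

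Added up over the 59 genes, the level was 14662, 14945 and 14892 CPM in control replicates 1, 2 and 3. It was 11558, 11718 and 11670 CPM in STIL-knockdown replicates 1, 2 and 3, a mean of 78.5% of control. The groups were thus well apart in the sum, and the hnRNPs made up most of it. All sums in CPM were taken per total reads of a library, without the further library scaling of the log2 CPM. Falls come out slightly smaller on that scale than in the fits. Most single falls were small: 17 of the 42 fell by at least 0.5 on the log2 scale, and only HNRNPA2B1 and HNRNPM fell by at least 1.

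**Figure D1:**
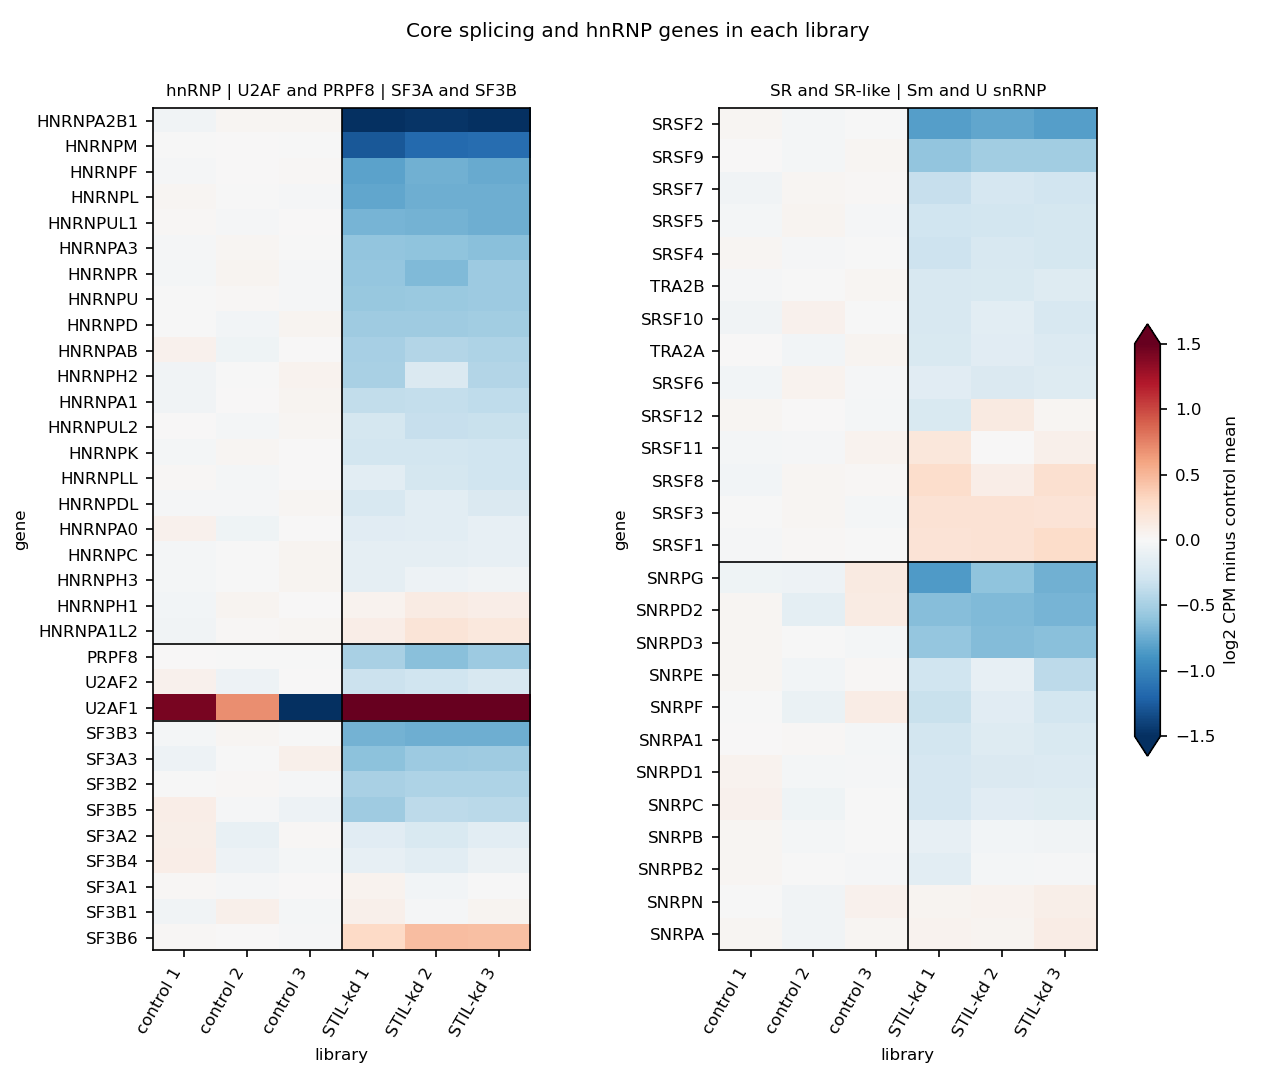
Heat map of the 59 members (rows, grouped by role and ordered by change) in the 6 libraries (columns), with colour showing log2 CPM minus the mean of the control libraries, in log2 units, and the scale ending at -1.5 and 1.5. STIL-knockdown (STIL-kd) columns are blue for most members, darkest for HNRNPA2B1 and HNRNPM, while U2AF1 alone varies widely among the control libraries.

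Nearly all hnRNP genes were lower. Of the 21 hnRNP genes limma called 18 (85.7%) lower and 0 higher, with a median log2 fold change of -0.38. Over all genes 23.6% were lower and 23.5% higher, and among strongly expressed genes (mean log2 CPM 5 or more) 34.5% and 36%. The values of the groups overlapped for none of the 21, with HNRNPH1 and HNRNPA1L2 higher after STIL knockdown. Such lack of overlap also held for 60.3% of all genes and 80.6% of strongly expressed genes. The summed level of the hnRNP genes was 8651, 8918 and 8879 CPM in controls and 6354, 6491 and 6408 CPM after STIL knockdown, or 72.8% of control. HNRNPA2B1 and HNRNPM, the members with the largest falls, and SF3B6, the member with the largest rise after U2AF1, are shown with their promoters, so that the sequences can be read beside the values. The sequences are from RefSeq (GRCh38.p14), run 5′ to 3′ on the gene's strand from 250 bases before to 50 after the transcript start, and are in lower case with the searched words in capitals: the CCAAT box (here as its reverse complement ATTGG) in HNRNPA2B1, the E-box CACGTG in HNRNPM, and the ETS word CCGGAAG and the GC box GGGCGG, or their reverse complements, in SF3B6.
HNRNPA2B1, chr7:26200697-26200996, minus strand: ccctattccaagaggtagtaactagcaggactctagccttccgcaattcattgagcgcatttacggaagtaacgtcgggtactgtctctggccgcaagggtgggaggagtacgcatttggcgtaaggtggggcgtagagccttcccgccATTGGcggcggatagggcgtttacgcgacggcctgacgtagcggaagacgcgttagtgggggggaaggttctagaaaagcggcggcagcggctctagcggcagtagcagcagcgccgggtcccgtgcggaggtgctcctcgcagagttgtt
HNRNPM, chr19:8444725-8445024, plus strand: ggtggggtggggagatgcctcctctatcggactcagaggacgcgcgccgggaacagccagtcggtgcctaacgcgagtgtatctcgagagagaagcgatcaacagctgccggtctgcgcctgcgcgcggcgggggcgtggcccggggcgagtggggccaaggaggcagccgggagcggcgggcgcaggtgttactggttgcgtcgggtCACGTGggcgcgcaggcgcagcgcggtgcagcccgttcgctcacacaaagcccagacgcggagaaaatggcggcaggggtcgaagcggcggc
SF3B6, chr2:24076277-24076576, minus strand: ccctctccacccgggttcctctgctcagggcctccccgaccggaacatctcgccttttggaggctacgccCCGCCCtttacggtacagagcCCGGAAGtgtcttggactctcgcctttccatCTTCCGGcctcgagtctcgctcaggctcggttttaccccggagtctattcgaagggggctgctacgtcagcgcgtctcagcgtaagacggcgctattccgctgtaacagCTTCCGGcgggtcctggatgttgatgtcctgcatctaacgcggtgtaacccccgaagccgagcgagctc

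HNRNPA2B1 encodes an abundant RNA-binding protein that takes part in splicing, mRNA transport and microRNA sorting. HNRNPA2B1 log2 CPM was 9.88, 9.96 and 9.97 in controls and 8.43, 8.47 and 8.44 after STIL knockdown. All STIL-knockdown libraries lay far below all controls, and the spread within a group was at most 0.05 (SD, n = 3). The fitted change was -1.49 on the log2 scale (standard error 0.03, adjusted p = 1.9e-12). STIL-knockdown cells retained 35.6% of the level in control cells. By size of fall, HNRNPA2B1 was number 142 of the 15953 genes.

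HNRNPM encodes a splicing repressor and activator that binds GU-rich sequence and is known from epithelial-mesenchymal transition. HNRNPM log2 CPM was 8.01, 8.03 and 8.01 in controls and 6.74, 6.85 and 6.87 after STIL knockdown. The control values were nearly equal, and STIL-knockdown replicate 1 was the lowest of all. The change of -1.20 (standard error 0.04, adjusted p = 2.5e-11) left 43.7% of the control level.

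HNRNPF, HNRNPL and HNRNPUL1 kept between 59.1% and 60.9% of their control level. HNRNPF, which binds G-runs near splice sites, had a log2 CPM of 8.72, 8.74 and 8.75 in controls and 7.94, 8.02 and 7.98 in STIL-knockdown libraries. The HNRNPF change was -0.76 (standard error 0.03, adjusted p = 3.1e-10). HNRNPL, which binds CA repeats, changed by -0.75, and HNRNPUL1, a relative of the scaffold protein HNRNPU, by -0.71, each with a standard error of 0.03. HNRNPA3, HNRNPR, HNRNPU, HNRNPD and HNRNPAB fell by 0.47 to 0.61 on the log2 scale. HNRNPD (AUF1) binds AU-rich elements and acts on mRNA decay, and HNRNPU binds chromatin and nuclear RNA.

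HNRNPA1 encodes a classical antagonist of SR proteins. HNRNPA1 log2 CPM was 10.64, 10.69 and 10.72 in controls and 10.32, 10.33 and 10.31 after STIL knockdown. These groups did not overlap, and the change of -0.36 (standard error 0.03, adjusted p = 7.2e-07) left 77.7% of control. HNRNPK, a poly(C)-binding protein, changed by -0.28, and HNRNPC, which binds uridine tracts and measures nascent RNA, by -0.13. The call on HNRNPC (adjusted p = 0.0019) was lost in 9 of 15 alternative fits, and that on HNRNPA0 (change -0.15) in 10. HNRNPH2 (change -0.38) lost its call in 6 of them, HNRNPLL (-0.24) in 5 and HNRNPDL (-0.20) in 2. HNRNPH1, HNRNPH3 and HNRNPA1L2 were not called, with log2 fold changes of 0.09, -0.09 and 0.15 and 95% intervals of 0.02 to 0.16, -0.16 to -0.01 and 0.01 to 0.29. HNRNPH1 and HNRNPA1L2 were thus the 2 hnRNP genes higher at an unadjusted p under 0.05. By edgeR and DESeq2 0 hnRNP genes were higher, and HNRNPH1 passed the threshold as higher in 2 of the 15 fits.

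Levels of different genes can be set side by side only per length. The CPM were therefore divided by the kilobases of each gene's principal transcript in GENCODE 29, the longest where several were marked so. On that scale HNRNPA1 was first of the 59 in control cells (393 ± 13, SD, n = 3), followed by HNRNPC (368 ± 9.1) and HNRNPA3 (319 ± 7.7). SNRPB (276 ± 4.5) and HNRNPA2B1 (276 ± 10) came next and did not differ beyond their spread. In STIL-knockdown cells the level of HNRNPC was first (346 ± 2.5) and that of HNRNPA1 second (315 ± 3.5), while HNRNPA2B1 stood at place 14 (101 ± 1.9). The length of one transcript per gene was used, so these levels and ranks are approximate where other, for example shorter, isoforms prevail. The length was 4121 bases for HNRNPA1, 1714 for HNRNPC, 2067 for HNRNPA3 and 3497 for HNRNPA2B1, and the ranks depend on it.

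**Figure D2:**
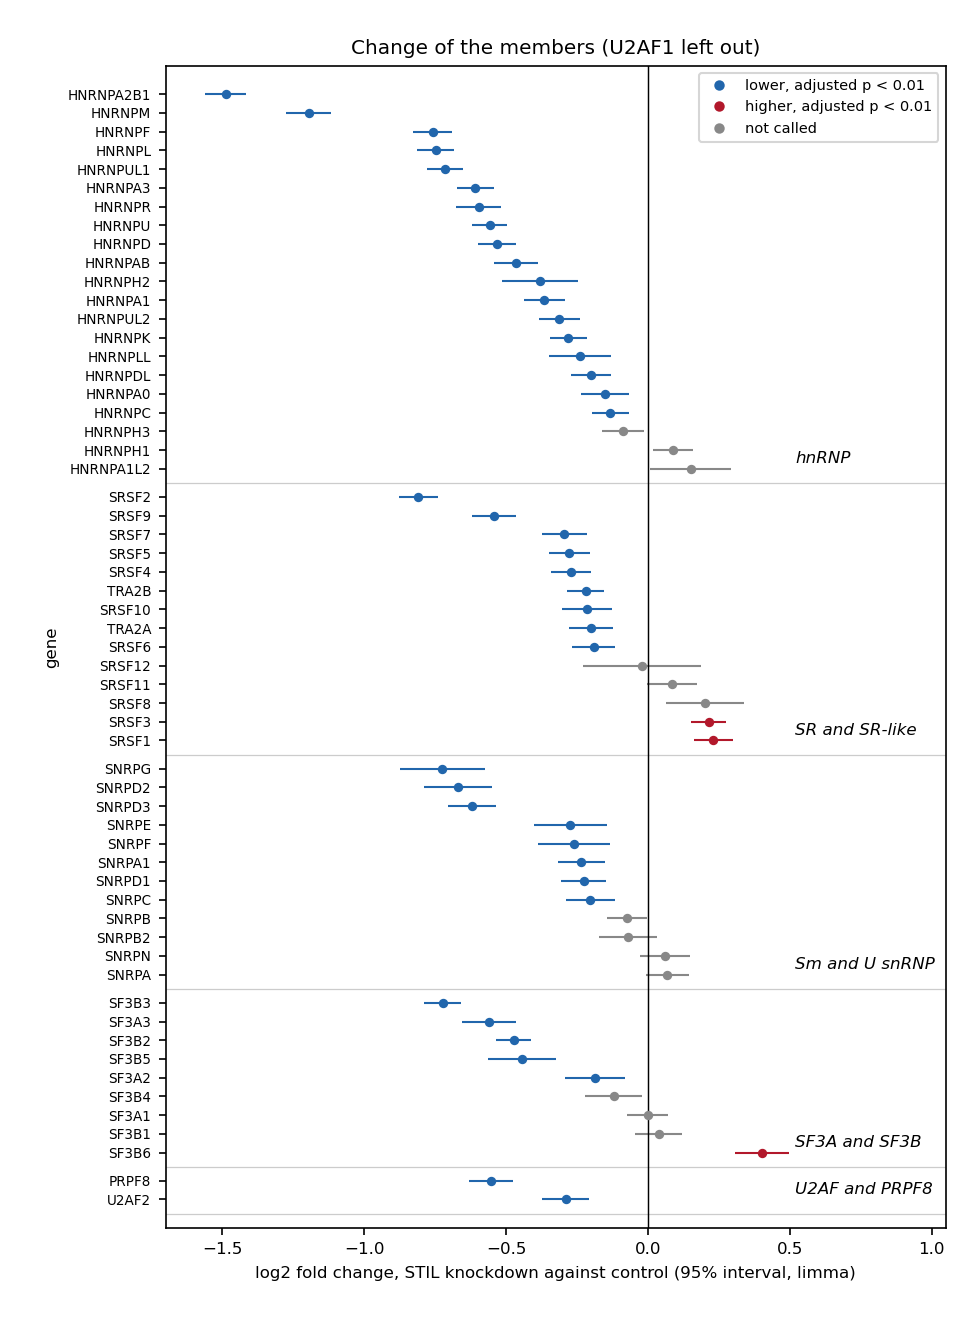
Log2 fold change of 58 members (points, STIL knockdown against control, limma) with 95% intervals (lines), grouped by role; U2AF1 is left out because its interval, 1.19 to 3.87, lies beyond the axis. Blue points are called lower, red higher and grey not called; HNRNPA2B1 (-1.49) and HNRNPM (-1.20) lie apart from the rest, and SF3B6 (0.40), SRSF1 (0.23) and SRSF3 (0.21) are the red points.

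The SR and SR-like genes moved in both directions. Of the 14 genes 9 (64.3%) were lower and 2 (14.3%) higher, with a median log2 fold change of -0.21, and their summed level was 91.8% of control. Over all genes 23.6% were lower and 23.5% higher, and among strongly expressed genes (mean log2 CPM 5 or more) 34.5% and 36%. SRSF2 (SC35), a nuclear speckle protein that binds exonic enhancers, had a log2 CPM of 8.17, 8.11 and 8.14 in control libraries and 7.32, 7.36 and 7.31 in STIL-knockdown libraries. All libraries of one group lay clear of the other, and the change was -0.81 (standard error 0.03, adjusted p = 1.9e-10), the largest fall of the family. SRSF9 log2 CPM was 6.91, 6.87 and 6.94 in control libraries and 6.32, 6.39 and 6.38 in STIL-knockdown libraries. The SRSF9 change of -0.54 (standard error 0.04, adjusted p = 3.0e-08) was the next in size. SRSF4, SRSF5, SRSF6, SRSF7, SRSF10, TRA2A and TRA2B fell by 0.19 to 0.29 on the log2 scale. Of these, SRSF10 lost its call in 5 of 15 alternative fits, SRSF6 in 4 and TRA2A in 1, that without STIL-knockdown replicate 3.

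SRSF1 and SRSF3 went the other way. SRSF1 (SF2/ASF), the founding SR protein and a known proto-oncogene, had a log2 CPM of 7.34, 7.38 and 7.34 in control libraries and 7.57, 7.57 and 7.63 in STIL-knockdown libraries. SRSF3, the smallest SR protein, which also acts in mRNA export, was at a log2 CPM of 7.98, 8.01 and 7.96 in control libraries and 8.19, 8.20 and 8.19 in STIL-knockdown libraries. For both genes every STIL-knockdown library was above every control, and the rises were small: 0.23 (standard error 0.03, adjusted p = 3.1e-05) for SRSF1 and 0.21 (standard error 0.03, adjusted p = 2.9e-05) for SRSF3. Both calls held in all 15 alternative fits. SRSF8 (0.20, adjusted p = 0.015) was not called here but was called higher in 6 of the 15 fits, and SRSF11 (0.08) was not called in any. SRSF12, at a mean log2 CPM under 4, gave -0.02 (95% interval -0.23 to 0.19) and turned positive under 3 of the scalings tried (0.02 to 0.04).

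The genes of the Sm ring, the proteins that encircle the small nuclear RNAs, were lower for most positions. Of the 12 Sm and U snRNP genes limma called 8 (66.7%) lower and 0 higher, with a median log2 fold change of -0.23. Their summed level was 89.7% of control. Over all genes 23.6% were lower and 23.5% higher, and among strongly expressed genes (mean log2 CPM 5 or more) 34.5% and 36%. None of the 12 was higher at an unadjusted p under 0.05, nor by edgeR or DESeq2. SNRPG log2 CPM was 5.81, 5.80 and 6.02 in control libraries and 5.03, 5.27 and 5.16 in STIL-knockdown libraries. SNRPD2 was at a log2 CPM of 7.08, 6.91 and 7.17 in control libraries and 6.41, 6.39 and 6.35 in STIL-knockdown libraries. SNRPD3 was at 6.45, 6.42 and 6.39 in control libraries and 5.84, 5.77 and 5.79 in STIL-knockdown libraries on the same scale. No library of these 3 genes crossed into the range of the other group, and the changes were -0.72 (standard error 0.07), -0.67 (0.06) and -0.62 (0.04), with adjusted p of 9.0e-07, 2.3e-07 and 1.7e-08. SNRPE (-0.27), SNRPF (-0.26) and SNRPD1 (-0.23) completed the 6 Sm ring genes called lower, of 8 measured. The calls on SNRPE and SNRPF were lost in 6 and 7 of the 15 alternative fits.

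SNRPB, which encodes the SmB and SmB′ proteins, and its neuronal counterpart SNRPN were not called. The SNRPB change was -0.07 (95% interval -0.14 to -0.00) and that of SNRPN 0.06 (-0.03 to 0.15). SNRPN shares its transcript with SNURF, and the reads of both added up to whole numbers (within 0.00065 of a read), with a log2 difference of 0.06 for the sum. Among the specific proteins of U1 and U2, SNRPA1, of the U2 snRNP, changed by -0.23 and SNRPC, of the U1 snRNP, by -0.20, the latter with a call lost in 6 of 15 alternative fits. SNRPA, of the U1 snRNP, gave 0.07 and SNRPB2, of the U2 snRNP, -0.07, both not called.

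Within the U2 snRNP, the SF3A and SF3B subunits did not move together. Of the 9 genes 5 (55.6%) were lower and 1 (11.1%) was higher, with a median log2 fold change of -0.19 and a summed level of 85.6% of control. Over all genes 23.6% were lower and 23.5% higher, and among strongly expressed genes (mean log2 CPM 5 or more) 34.5% and 36%. SF3B3, a scaffold subunit of SF3B, had a log2 CPM of 8.58, 8.63 and 8.60 in control libraries and 7.90, 7.88 and 7.87 in STIL-knockdown libraries. The libraries of each group were close together, and the change was -0.72 (standard error 0.03, adjusted p = 3.1e-10). SF3A3 (-0.56), SF3B2 (-0.47) and SF3B5 (-0.44) were lower as well, and their calls held in all 15 alternative fits. SF3A2 (-0.19, adjusted p = 0.0049) lost its call in 9 of them.

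SF3B1, the subunit that clasps the branch point duplex and is often mutated in myeloid neoplasms and uveal melanoma, did not follow. SF3B1 log2 CPM was 8.38, 8.51 and 8.41 in control libraries and 8.51, 8.42 and 8.48 in STIL-knockdown libraries. The groups overlapped, and the 95% interval of the change ran from -0.05 to 0.12. SF3A1 gave -0.00 (95% interval -0.07 to 0.07), with a sign that turned under 3 scalings, under DESeq2 and when single libraries were left out, and SF3B4 -0.12 (adjusted p = 0.038). SF3B6 (p14), which contacts the branch point adenosine, was at a log2 CPM of 6.29, 6.29 and 6.26 in control libraries and 6.58, 6.74 and 6.73 in STIL-knockdown libraries. Every STIL-knockdown library was above every control, and the rise was 0.40 (standard error 0.04, adjusted p = 4.1e-06), to 132% of control. SF3B3 and SF3B6, subunits of the same complex, thus differed in direction.

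PRPF8, the largest protein of the spliceosome core, had a log2 CPM of 9.59, 9.57 and 9.58 in control libraries and 9.09, 8.96 and 9.03 in STIL-knockdown libraries. The groups did not overlap, and the change was -0.55 (standard error 0.04, adjusted p = 2.1e-08), which left 68.1% of control. U2AF2, the large U2AF subunit that binds the polypyrimidine tract, was at a log2 CPM of 7.90, 7.77 and 7.85 in control libraries and 7.52, 7.54 and 7.60 in STIL-knockdown libraries. This was a change of -0.29 (standard error 0.04, adjusted p = 2.3e-05) without overlap, and its call was lost only when STIL-knockdown replicate 2 was left out.

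U2AF1, the small subunit that reads the AG at the 3′ splice site, gave the largest log2 fold change of all members, 2.53 (standard error 0.62, adjusted p = 0.0033). However, its reads are split with U2AF1L5, which is annotated in GRCh38 with the same coding sequence. U2AF1 and U2AF1L5 both lie on the minus strand of chromosome 21 in GRCh38, from 43092956 to 43107587 and from 6484623 to 6499261. Their annotated coding sequences of 720 bases differ at 0 positions, as the first 60 coding bases of each show.
U2AF1: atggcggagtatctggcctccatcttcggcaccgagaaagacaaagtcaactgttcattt
U2AF1L5: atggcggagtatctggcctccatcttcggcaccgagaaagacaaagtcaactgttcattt

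RSEM gave U2AF1 135.3, 82.7 and 9.8 estimated reads in control replicates 1, 2 and 3 and 273.1, 301.8 and 370.5 in STIL-knockdown replicates 1, 2 and 3. U2AF1L5, which is no member, received 1635.7, 1670.3 and 1751.2 reads in control libraries and 1572.8, 1799.2 and 1665.5 in STIL-knockdown libraries. The reads of the pair added up to whole numbers (within 0.00059 of a read), 1771, 1753 and 1761 in control libraries and 1846, 2101 and 2036 in STIL-knockdown libraries. The share given to U2AF1 ranged from 0.555% to 7.64% in control libraries and from 14.4% to 18.2% in STIL-knockdown libraries. For the sum the log2 difference was 0.09, the groups overlapped, and the exact permutation test gave p = 0.3. The call on U2AF1 itself was lost in 7 of 15 alternative fits, DESeq2 included. Without U2AF1, 42 of 58 members were lower and 3 higher.

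**Figure D3:**
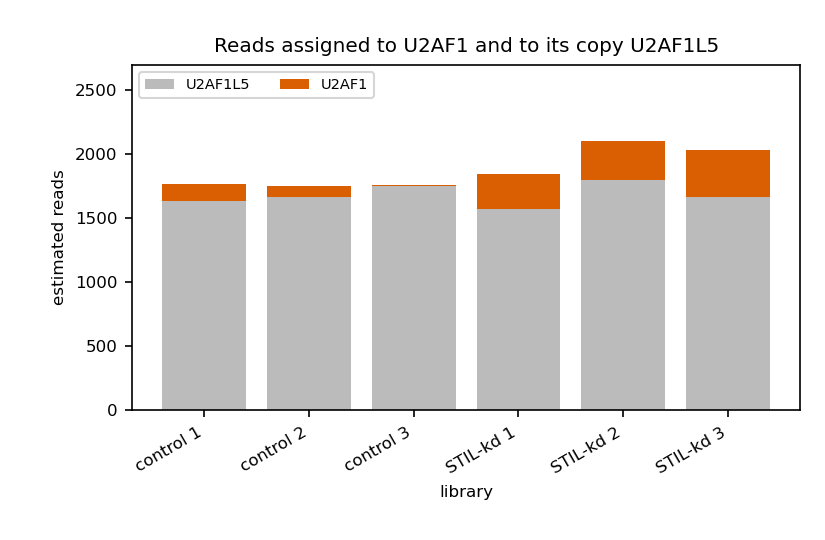
Estimated reads (y axis) assigned to U2AF1L5 (grey) and U2AF1 (orange) in each library (x axis), stacked. The whole bars hold 1753 to 2101 reads and overlap between the groups once scaled to log2 CPM, while the orange part grows from 9.8 to 135.3 reads in control to 273.1 to 370.5 in STIL-knockdown (STIL-kd) libraries.

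Fractional estimates occurred for other members too. Counts as deposited were whole (within 1e-09 of a read) in all 4 count tables for 46 of the 59 members, and 13 had a fraction of a read in at least 1 table, among them SRSF2, SRSF9, SNRPD3, HNRNPA1 and HNRNPH2. Their values depend in part on how RSEM divided reads between overlapping or similar transcripts. For HNRNPA1 and its retrocopy HNRNPA1L2 the sum changed by -0.36, close to HNRNPA1 alone, which took 98.4% to 98.9% of the reads of the pair.

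Close relatives were also compared with each other. In 15 pairs of related genes, formed by family, the difference in log2 CPM within the pair was taken in each library. The groups did not overlap in 12 of the 15 pairs, where the exact permutation p was 0.1, the smallest possible (0.125 after Benjamini-Hochberg adjustment over the 15 pairs), so no pair could reach significance. The share of such pairs among genes at large was not computed, and U2AF1 with U2AF1L4, one of the 12, rests on the read split described for U2AF1. The differences within a pair are not per length, so only their change between the groups can be read. In CPM per kilobase of the longest principal transcript, HNRNPA2B1 was below HNRNPA3 in control cells (276 against 319) and in STIL-knockdown cells (101 against 216). The log2 CPM of HNRNPA2B1 minus that of HNRNPA3 was 0.55 ± 0.04 (SD, n = 3) in control cells. It was -0.33 ± 0.03 in STIL-knockdown cells, a change of -0.88. SRSF2 against its retrogene relative SRSF8 gave -1.01, and HNRNPL against HNRNPLL -0.51. SRSF1 gained 0.77 on SRSF9, and SRSF3 gained 0.51 on SRSF7. The intervals of the single changes did not overlap in any of these 5 pairs. These are among the pairs with the largest changes, so this describes them and is not a test. TRA2A and TRA2B, the transformer-2 proteins, kept nearly the same difference: it changed by 0.02, with overlap between the groups (exact permutation p = 0.5). The differences also overlapped for SRSF4 with SRSF6 (exact permutation p = 0.3) and SRSF10 with SRSF12 (exact permutation p = 0.2).

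Other genes of the splicing machinery moved in both directions. In 8 further lists with 147 measured genes, 65 (44.2%) were lower and 29 (19.7%) higher, with a median log2 fold change of -0.13. Over all genes 23.6% were lower and 23.5% higher, and among strongly expressed genes (mean log2 CPM 5 or more) 34.5% and 36%. Of the snRNP-specific proteins 13 of 23 were lower and 3 higher. The largest fall there was that of SNRNP25 (-1.38), a protein of the minor spliceosome, and the largest rise that of SNRNP48 (0.82), of the same particle. Of the LSM proteins that ring the U6 RNA, 4 of 7 were lower, led by LSM3 (-0.80), and of SMN complex and snRNP assembly genes 8 of 18 were lower and 1 higher.

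The remaining lists differed in their split. Of the NTC, Bact and catalytic-step genes 8 of 27 (29.6%) were lower and 8 higher, from CRNKL1 (-0.55) to CWC22 (0.48). Both shares lay between those of all genes (23.6% and 23.5%) and those of strongly expressed genes (34.5% and 36%). Of the branch site and early recognition factors 7 of 20 (35%) were lower and 6 (30%) higher, near the shares of strongly expressed genes. Of the exon junction complex 5 of 9 (55.6%) were lower and 2 (22.2%) higher. Of the kinases that phosphorylate SR proteins 1 of 7 (14.3%) was lower (CLK2, -0.68) and 3 (42.9%) were higher, among them SRPK1 (0.30). Lists of 7 and 9 genes are short, so each share there rests on few genes. Of 36 other splicing regulators 19 (52.8%) were lower and 6 (16.7%) higher, with PTBP3, a polypyrimidine tract-binding protein, at -1.04. No test between lists was made.

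**Figure D4:**
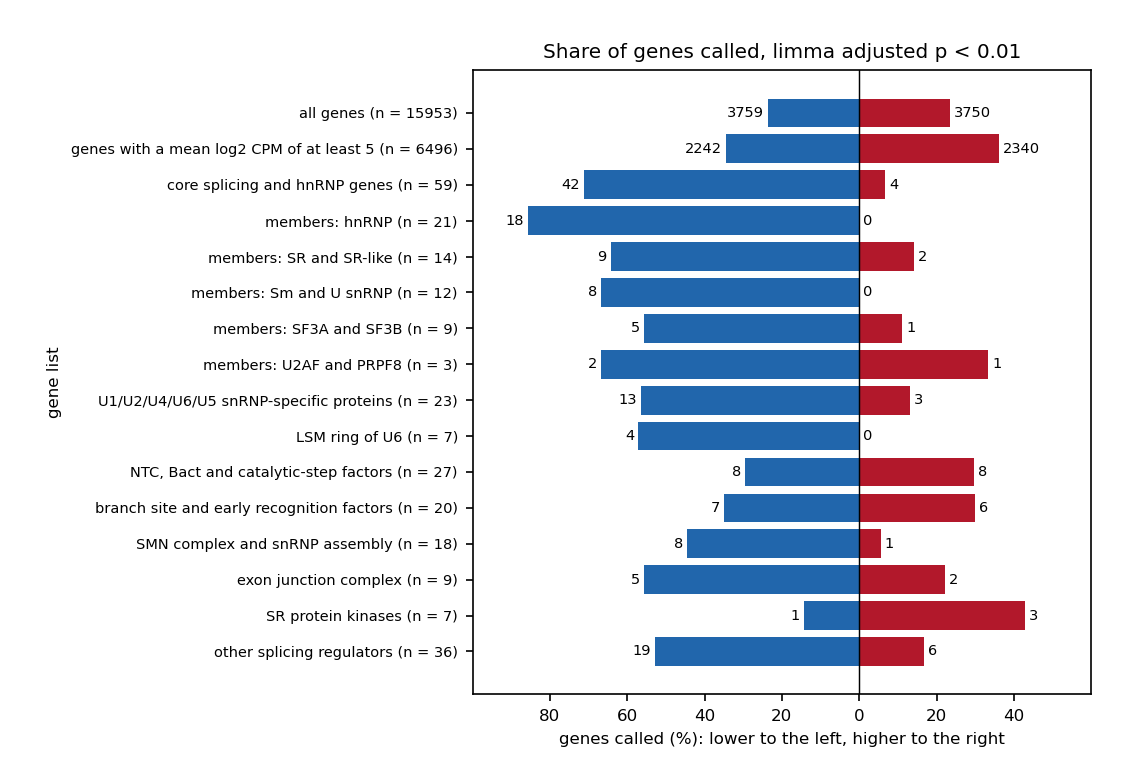
Share of genes called lower (blue, to the left) and higher (red, to the right) in percent, with counts at the bar ends, for all genes, strongly expressed genes, the members, their 5 roles and 8 further lists of splicing genes. The members' bar reaches 71.2% to the left against 23.6% for all genes, and the hnRNP bar is the longest.

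The members lie on 22 different chromosomes. For 15 members a protein-coding neighbour that starts within 1000 bases on the opposite strand was measured, and for 5 of them the annotated genes overlap at their starts. Of the 11 members in these pairs that were lower, 6 had a neighbour that was lower too, 4 a neighbour that was not called and 1 a neighbour that was higher. For comparison, 23.6% of all genes and 34.5% of strongly expressed genes were called lower. Whether 6 of 11 exceeds these shares was not tested. SRSF9 (-0.54) and DYNLL1 (-0.51), a dynein light chain, changed by a like amount, as did SF3B3 (-0.72) and COG4 (-0.62). CBX3, a heterochromatin protein that shares its promoter region with HNRNPA2B1, changed by -0.36 and HNRNPA2B1 by -1.49. CBX5, a heterochromatin protein too, was higher by 0.32 beside HNRNPA1, which was lower by -0.36. SF3B6 rose by 0.40 and its neighbour FAM228B, at a far lower level, by 1.42.

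**Figure D5:**
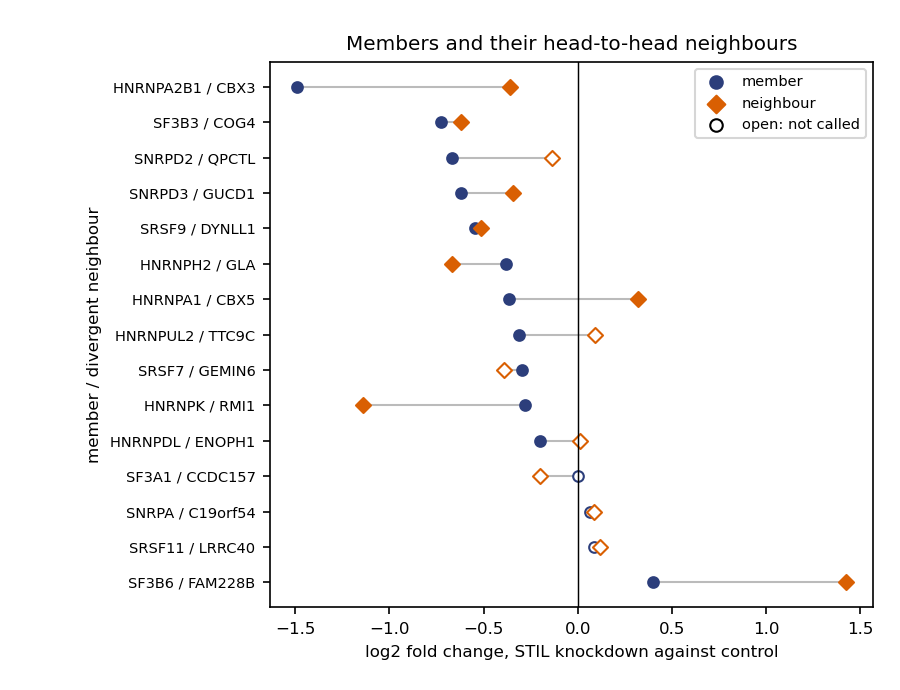
Log2 fold change (x axis) of 15 members (blue circles) and of the gene that starts beside each on the opposite strand (orange diamonds), with open symbols for genes not called. SRSF9 with DYNLL1 and SF3B3 with COG4 lie close together, whereas HNRNPA2B1 with CBX3, HNRNPK with RMI1 and HNRNPA1 with CBX5 lie far apart.

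Promoter sequence of the RefSeq table was matched for 54 of the 59 members. HNRNPA1, SF3B3, SNRPD1, SRSF2 and TRA2A had no entry. Words were searched on both strands and counted by gene, beside the 12621 measured genes with a promoter in the table. The ETS word CCGGAAG was in 19 of the 54 members (35.2%), against 19.4% of measured genes and 12.2% of all genes in the table. It was present in 14 of the 37 members called lower and in 5 of the other 17, SF3B6 among them. The E2F word TTTCCCGC was in 5 members (9.26%, against 2.96% of measured genes and 1.98% of all) and the NRF1 word GCATGCGC in 6 (11.1%, against 5.62% and 3.68%). The second E2F word, TTTGGCGC, was in 1 member (1.85%, against 1.20% and 0.795%).

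The remaining words were closer to the background. The E-box CACGTG was in 8 members (14.8%, against 11.8% of measured genes and 8.77% of all), the CCAAT box in 26 (48.1%, against 42.7% and 39.7%) and the TATA box TATAAA in 7 (13.0%, against 10.1% and 14.0%). The GC box GGGCGG was in 37 (68.5%, against 72.2% and 48.3%). The promoter of SRSF9, a member called lower, held none of the searched words and is not printed. That of HNRNPA2B1 held 1 CCAAT box, that of HNRNPM 1 E-box, and that of SF3B6 the ETS word 3 times and 1 GC box. These are matches of letters in a fixed window, and no binding was measured.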

How the data were processed

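RNA-seq of 6 libraries was analysed, 3 of control and 3 of STIL-knockdown EJ cells. Groups followed the sample labels, which name short hairpin RNAs, whereas the column headings of the tables name siRNAs. Per the submitters' processing notes, Bowtie2, RSEM and limma were used with build hg38; versions are not given in the sources used here. The deposited tables hold log2 CPM of 15953 genes for all 6 libraries, computed by the authors with library scaling and a prior count of 2. The authors also deposited estimated counts from RSEM, without normalization, of which tables for 4 libraries were used here.

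Reads were recovered from the log2 CPM, with a largest difference of 0.0788 reads to the deposited counts. Sums in CPM and levels per length divide these reads by the library total alone. The deposited log2 CPM also carries scaling factors, 0.981 to 0.992 in control and 1.01 to 1.02 in STIL-knockdown libraries. The log2 CPM of all genes was fitted with limma 3.58.1 in R 4.3.3 (mean-variance trend, no replicate block), with Benjamini-Hochberg adjustment over all genes and a threshold of 0.01. Fold changes are on the log2 CPM scale with its prior count, which understates those of low genes. Exact permutation tests were two-sided. The count tables had been assumed to hold whole counts, so recovered reads were rounded for edgeR 4.0.16 (quasi-likelihood) and DESeq2 1.42.0, run as alternatives. The 15 alternative fits also changed the scaling, prior count, filter, trend and block, or left out 1 library each. The fits were also run on simulated data with few changed genes and the same dispersion for every gene. That setting differs from these data, so the run gives no support to the calls made here.

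Same-numbered libraries of the groups did not deviate together (r = -0.121, -0.0553 and -0.107), so numbers were not used as pairs. The common dispersion of edgeR corresponded to a coefficient of variation between libraries of 3.02%, which leaves out counting error. Counting error is small only for genes with many reads, and SRSF12 for example had 199 to 258 reads per library. Positions and transcript lengths are from GENCODE 29 (GRCh38) and promoters from RefSeq (GRCh38.p14). Genes named were STIL, in each role the 3 largest falls and 2 largest rises (mean log2 CPM 3 or more), a set of well-known members, members of pairs of relatives, members whose call changed, and the extremes of each further list, of which 1 gene is not reported here. Neighbours, copies and any other gene outside this rule were named after their values were seen. Members, lists and tests were chosen with earlier results of these data known. Protein sequences were not analysed here.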

Additional observations from a re-analysis of the deposited data

How the results depend on the processing

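Of the 42 members called lower, 29 were called lower in all 15 alternative fits, and SF3B6, SRSF3 and SRSF1 were called higher in all of them. The median log2 fold change of the members was -0.22 with scaling by library size only and -0.22 with median centring; these 2 scalings each called 39 members lower and 6 higher. Quantile normalization called 39 lower and 5 higher, edgeR 42 and 5, DESeq2 42 and 3, and limma without the mean-variance trend 32 and 3. Leaving out 1 library at a time gave 30 to 36 members lower, 3 to 4 higher, a median of -0.28 to -0.24, and 48 to 59 of the other splicing genes lower and 19 to 25 higher. With single libraries left out, SNRPF lost its call in all 6 fits, SF3A2, SNRPE, SNRPC, HNRNPH2, HNRNPLL, HNRNPA0, HNRNPC and U2AF1 in 5, SRSF10 in 4 and SRSF6 in 3, TRA2A and HNRNPDL lost it without STIL-knockdown replicate 3, and U2AF2 without STIL-knockdown replicate 2. Over all genes 7509 were called, and 4900 to 5638 with 1 library left out; these fits have fewer samples, and the lowest count of 4900 and of 19 higher splicing genes came without STIL-knockdown replicate 3. With a replicate block 41 members were lower, 4 higher and 6898 genes called in all, and HNRNPA0 was the member that lost its call. The sign turned only for SF3A1 and SRSF12, both not called in any fit. SF3A1 gave 0.00287 with DESeq2, 0.0433 with library size only, 0.0421 with median centring, 0.0203 with quantile normalization, and -0.0255 to 0.0187 with 1 library left out. SRSF12 gave 0.0229, 0.0221 and 0.0422 with library size only, median centring and quantile normalization and -0.100 to 0.0813 with 1 library left out. The causes were not tested. The 3 alternatives chosen after seeing the data counted fewer members: without U2AF1 42 were lower and 3 higher, among those at 5 or more in mean log2 CPM the counts were 42 and 3, and with whole counts in the 4 tables they were 34 and 3.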
